A study of Mus musculus with 2 samples.

Results

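Symbols of 6 genes that are used to mark alternatively activated macrophages were followed across the cells of the mouse colon lamina propria. The genes were Retnla, Chil3, Mrc1, Mgl2, Cd209a and Il4ra, chosen by symbol, and all 6 were found once each among the 31053 features of both count tables. There was 1 library of wild-type (WT) mice and 1 of mice labelled as LncRNA17Rik knockout (KO). LncRNA17Rik is taken here to be the long non-coding RNA that the study calls lncLy6c. Per the study's methods the knockout was made with CRISPR-Cas9 on the C57BL/6J background, and per its description of these libraries the mice were male and 8 weeks old and gave pooled cells. The labels describe the sorted cells as cd11b+, the surface protein encoded by Itgam, and give both groups the same gut lamina propria preparation with no further treatment. With 1 library per genotype no difference between WT and KO was tested, and cells were not used as replicates. LncRNA17Rik is not the symbol of any feature, so the knockout was not checked here.

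Alternative activation is the state that macrophages enter when interleukin-4 or interleukin-13 binds a receptor that contains the Il4ra chain, after which the transcription factor STAT6 switches on a set of target genes. Retnla and Chil3 encode the secreted proteins RELMα and Ym1, and Mrc1, Mgl2 and Cd209a encode C-type lectin receptors that bind sugars on the cell surface. The colon holds resident macrophages that are replenished from blood monocytes, and dendritic cells there also carry several of these lectins.

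The 250 bases before the start of each gene were searched for the palindromes TTCNNNNGAA, the spacing usually given for STAT6, and TTCNNNGAA, the spacing usually given for other STAT proteins. Both read the same on either strand, and they cannot begin at the same base, though they can overlap elsewhere. All of the genes were in the RefSeq promoter table (GRCm38.p6). Windows and distances are counted from the RefSeq start, which for some genes differs from the GENCODE start used for the gene coordinates given below. The windows of Retnla, Mrc1, Mgl2 and Il4ra run past that GENCODE start. Retnla held the longer palindrome, which 5.85% of 32851 promoters hold, and Chil3 held the shorter one, which 7.02% hold. No match was found in the windows of Mrc1, Mgl2, Cd209a and Il4ra. The stretches that follow are shown because a neighbouring paralog of each gene holds a match to the same palindrome at the matching place, while its RNA level over the cell classes was not the same. Capitals mark the palindrome.

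Retnla: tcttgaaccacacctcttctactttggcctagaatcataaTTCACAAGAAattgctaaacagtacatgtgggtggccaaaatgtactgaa

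Retnlg: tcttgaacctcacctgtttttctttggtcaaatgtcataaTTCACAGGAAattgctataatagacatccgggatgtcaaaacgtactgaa

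Chil3: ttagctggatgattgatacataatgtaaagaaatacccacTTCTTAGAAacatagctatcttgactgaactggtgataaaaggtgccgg

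Chil4: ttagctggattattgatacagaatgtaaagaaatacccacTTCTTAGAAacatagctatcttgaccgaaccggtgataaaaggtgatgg

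The Retnla stretch lies at chr16:48842424-48842513 on the plus strand and its palindrome begins 145 bases before the RefSeq start. The Retnlg stretch lies at chr16:48872496-48872585 on the plus strand with its palindrome 72 bases before the RefSeq start. They share 69 of 90 bases (76.7%). The Chil3 stretch lies at chr3:106167688-106167776 on the minus strand, with its palindrome 172 bases before the RefSeq start. The Chil4 stretch lies at chr3:106219631-106219719 on the minus strand, with its palindrome 200 bases before the RefSeq start. They share 83 of 89 bases (93.3%). A match describes the letters only and is not a measured binding site.

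After the study's filters, 2597 of 3185 WT barcodes and 2514 of 3020 KO barcodes were kept, with 18994564 and 22331342 UMIs (unique molecular identifiers, 1 per captured RNA molecule). The median cell held 5073 UMIs in the WT library and 6564.5 in the KO library, and 1 barcode occurred in both. Itgam was detected in 40.0% of the WT cells and 57.8% of the KO cells, and both libraries also contained T, B, plasma, epithelial and fibroblast-like cells. Cells were grouped into 27 clusters without use of these genes, and clusters were named from markers. Several clusters came almost wholly from 1 library. Cluster 1 (resident macrophage-like, led by Ly6i, Cxcl9 and Mmp14) held 387 WT and 14 KO cells, and cluster 13 (unnamed, led by Mgl2, Ccl17, Cd209a and Ear2) held 7 WT and 159 KO cells. Levels below are UMIs per 1000000 UMIs of the class (CPM), intervals are 95% and cover counting error only, and a positive cell is one with at least 1 UMI of the gene.

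Over all kept cells, Mgl2 showed the greatest difference between the libraries, while Il4ra was nearly equal. There were 997 Mgl2 UMIs in WT and 6635 in KO, or 52.5 and 297.1 CPM, a log2 ratio of KO to WT of 2.50 (2.40 to 2.60). Cd209a had 1789 and 6489 UMIs, 94.2 and 290.6 CPM, with a log2 ratio of 1.63 (1.55 to 1.70). The ratio intervals of these genes lay wholly above 2-fold. Retnla had 1777 and 6004 UMIs, 93.6 and 268.9 CPM, and a log2 ratio of 1.52 (1.45 to 1.60). Chil3 had 1042 and 1965 UMIs, 54.9 and 88.0 CPM, at 0.68 (0.57 to 0.79), and Mrc1 had 1265 and 1929 UMIs, 66.6 and 86.4 CPM, at 0.38 (0.27 to 0.48). Il4ra had 2208 and 2496 UMIs, 116.2 and 111.8 CPM, and its interval included no difference (−0.06, −0.14 to 0.03). At least 2-fold between libraries were 3 of the 6 genes, all higher in KO, against 24.3% of the 14006 genes with at least 20 UMIs, with a median log2 ratio of −0.27. A pooled ratio cannot tell apart more cells of a type from more RNA per cell, and the classes differed in size. Resident macrophage-like cells numbered 547 in WT and 128 in KO, inflammatory monocyte-like cells 98 and 346, and conventional dendritic cells type 2 (cDC2)-like cells 280 and 434. The boundary between macrophage and monocyte names was not firm. Over the alternative clusterings and filters the WT resident macrophage-like cells numbered between 211 and 500 and the WT inflammatory monocyte-like cells between 36 and 475, so ratios are also given within clusters.

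**Figure D1:**
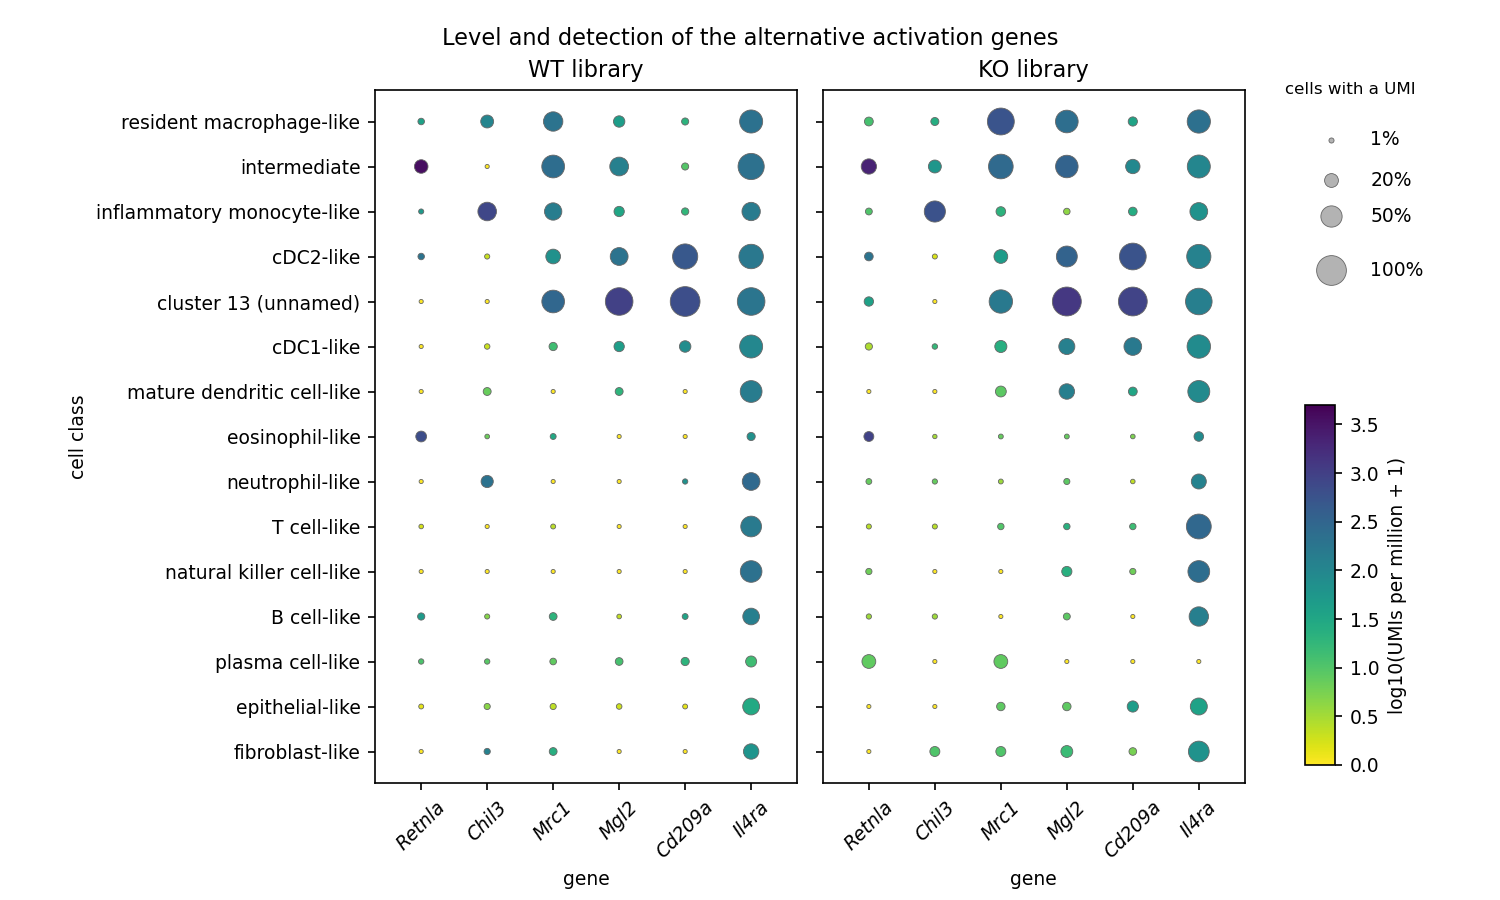
Level of each gene by cell class in the WT and KO libraries, where the colour gives log10(CPM + 1), the area of a dot the share of cells with a UMI, and cluster 13 is the unnamed cluster drawn. Retnla was highest in the intermediate cluster (3612 and 2218 CPM), Chil3 in inflammatory monocyte-like cells in both, Mrc1 in resident macrophage-like cells in KO and in cluster 13 in WT (296.1 CPM, from 7 cells of which 1 held 17 of the 28 UMIs), and Mgl2 and Cd209a in cluster 13 in both.

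The receptor chain Il4ra was the most widely detected of the genes, with a UMI in 38.7% of the WT and 43.7% of the KO cells, or 22.1% and 19.7% after each cell was thinned to 2000 UMIs. Unthinned, it was detected in 59.2% of WT and 60.2% of KO resident macrophage-like cells and in 66.8% and 65.4% of cDC2-like cells. After thinning the order turned, with 33.0% and 30.9% of resident macrophage-like cells and 23.4% and 19.4% of cDC2-like cells. Among classes with at least 30 cells, its WT level was highest in neutrophil-like cells at 283.8 CPM (215.0 to 367.8) and next in resident macrophage-like cells at 208.6 CPM (194.4 to 223.6), and the neighbours' intervals overlapped. In KO it was highest in T cell-like cells at 285.9 CPM (246.5 to 329.8), then in natural killer cell-like cells at 246.5 CPM (179.1 to 331.0) and resident macrophage-like cells at 222.1 CPM (194.4 to 252.6), again with overlapping neighbours. Il4ra differed little between libraries in resident macrophage-like cells (log2 0.09, −0.13 to 0.30). It was lower in KO in inflammatory monocyte-like cells, at 150.7 against 64.0 CPM (−1.24, −1.61 to −0.85). Different clusters filled that class. Clusters 18, 5 and 22 gave 47, 33 and 18 WT cells and 39, 269 and 38 KO cells. The intervals included no difference in cluster 18 (−0.76, −1.76 to 0.21) and cluster 5 (−0.51, −1.23 to 0.28), while cluster 22, with 45 of the 86 WT Il4ra UMIs of the class, gave −1.36 (−2.06 to −0.67). Neutrophil-like cells went the same way, at 283.8 and 118.7 CPM (−1.26), and T cell-like cells the other way, at 155.8 and 285.9 CPM (0.88, 0.59 to 1.16). Among the T cell-like clusters, cluster 12 (137 WT and 32 KO cells) gave 1.49 (1.02 to 1.95) and cluster 24 gave 1.05 (0.09 to 2.12). Cluster 23 was at 0.64 with an interval that included no difference (−0.01 to 1.32), and only cluster 19 went the opposite way, at −0.93 (−1.76 to −0.17).

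Of the cytokines that bind this receptor, Il4 was found mainly in eosinophil-like cells and Il13 hardly at all. Il4 had 105 WT and 109 KO UMIs, of which eosinophil-like cells held 71 and 91 (67.6% and 83.5%). In that class 46 of 192 WT cells and 72 of 407 KO cells were positive. Il13 had 2 and 6 UMIs in all. The eosinophil-like name rests on 3 of 6 markers raised in cluster 0 (Siglecf, Ccr3 and Alox15, but not Epx, Prg2 or Il5ra). This is the lowest number that gave a name. Eosinophil-like cells were shallow, with a median of 735 UMIs in WT and 970 in KO, so most shares there are lower than the same level would give elsewhere.

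Retnla RNA was concentrated in a handful of cells. The richest cell held 442 UMIs in WT and 651 in KO (24.9% and 10.8% of all Retnla UMIs), and 3 WT and 7 KO cells held 50% or more. Cluster 11, whose leading genes were Retnla, Ccl24, Lpl, Fn1 and Pf4 and whose raised resident macrophage and monocyte markers were equal in number, held 46.5% of the Retnla UMIs in WT and 71.3% in KO. Only 5 of its 26 WT cells and 39 of its 156 KO cells were positive (19.2% and 25.0%). The WT cells of the cluster had 3612 CPM (3370 to 3867) and the KO cells 2218 CPM (2152 to 2285), with a log2 ratio of −0.70 (−0.81 to −0.59). One WT cell held 442 of the 826 UMIs, and without the richest cell of each library the ratio was 0.13 (−0.02 to 0.29). Cells with at least 50 Retnla UMIs, a limit chosen after the values were seen, numbered 7 in WT and 23 in KO and held 81.6% and 84.7% of the Retnla UMIs. In these cells Fn1, also used here as a monocyte marker, was found in 7 and 21, Lpl (lipoprotein lipase) in 7 and 17, and Mrc1 in 7 and 20. The macrophage gene C1qa was found in 3 and 14, Pf4 in 2 and 13, the cDC2 gene Clec10a in 1 and 12, and the dendritic cell gene Flt3 in none. Within the cDC2-like cluster 2, 3 WT cells held 99.1% and 4 KO cells 80.2% of the Retnla UMIs, and all of these had Fn1 and none had Flt3 or Clec10a. The cDC2-like level of Retnla, 195.7 CPM in WT and 192.6 in KO (−0.02), thus came mostly from 7 cells in which those dendritic cell genes were not detected, and without the richest cell of each library the ratio was −0.56.

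By CPM, eosinophil-like cells came next for Retnla after cluster 11, although they held only 6.75% of the WT and 6.96% of the KO Retnla UMIs. WT cells of this class had 696.2 CPM (577.2 to 832.5) and KO cells 918.3 CPM (832.4 to 1011), with a log2 ratio of 0.40 (0.10 to 0.70), with 11.5% and 9.34% positive cells. Retnla and Il4 were both found in 8 of 192 WT and 5 of 407 KO eosinophil-like cells. In T cell-like cells, used as a measure of free RNA, Retnla had a UMI in 0.420% of WT and 0.935% of KO cells, at median depths of 4956 and 5775 UMIs. In B cell-like cells, also set as such a measure, the shares were 4% and 1.18%, at 3033.5 and 4394 UMIs. The WT B cell-like share was above that of WT resident macrophage-like cells (2.93%), though 1 cell held 26 of the 39 UMIs. Retnlg, the neighbour of Retnla shown above, was likewise high in eosinophil-like cells (8326 and 6514 CPM). It was also high in neutrophil-like cells (2639 and 3167 CPM).

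Chil3 marked inflammatory monocyte-like cells in both libraries. Their level was 811.4 CPM (739.2 to 888.8) for WT against 576.7 CPM (549.9 to 604.4) for KO, with 37.8% and 49.4% positive cells, and the log2 ratio was −0.49 (−0.64 to −0.34). This direction rests on the class boundary, and the ratio was 0.86 at Leiden resolution 0.5 and 0.87 at 2, where 402 and 401 WT cells took the name. In KO cluster 5, led by Chil3, Ace and F10, held 78.3% of all Chil3 UMIs. Within that cluster the level was 1416 CPM in WT (33 cells) and 615.0 in KO (269 cells), a ratio of −1.20 (−1.38 to −1.02), and cluster 18 went the same way at 640.8 and 306.4 CPM (−1.06). Cluster 22, with 18 WT and 38 KO cells and Rsad2 and interferon-induced Ifit genes among its leading genes, went the other way, at 84.6 and 488.7 CPM (2.53). Resident macrophage-like cells held 400 WT and 25 KO Chil3 UMIs, or 104.4 and 23.9 CPM (−2.13), and most of the WT UMIs (388) lay in cluster 1. Inside cluster 1 the levels were 136.3 and 164.2 CPM (0.27, −0.41 to 0.88), an interval that included no difference. Cluster 1 also had 5 of 8 monocyte markers raised beside 7 of 10 macrophage markers, and its WT cells with the most Chil3 (41, 37 and 26 UMIs) had 9, 29 and 39 UMIs of the monocyte gene Ly6c2 and 0 of C1qa. In T cell-like cells Chil3 was found in 0% of WT and 0.935% of KO cells, and in B cell-like cells in 1% and 1.18%. Of the 50-base stretches within the last 500 bases of its transcripts, 15.4% were shared with Chil4, which had under 20 UMIs in all. How reads from the shared stretches were counted was not tested.

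**Figure D2:**
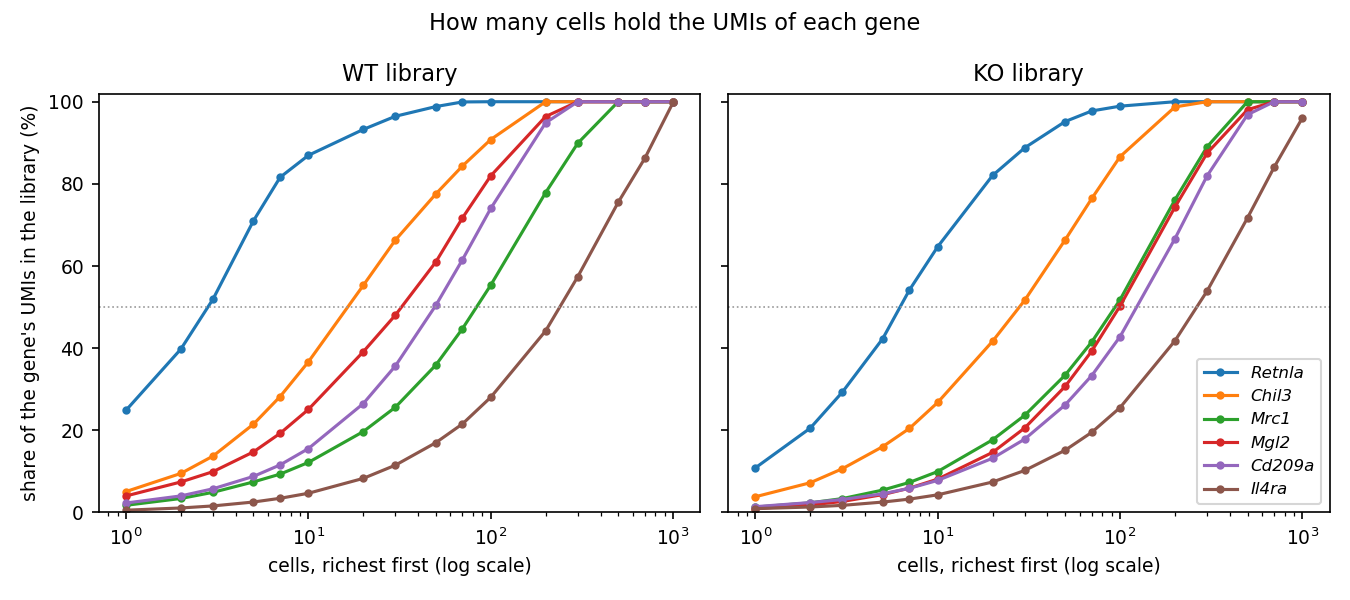
Cumulative share of each gene's UMIs against cells ordered from the richest, for each library. For Retnla 3 WT and 7 KO cells held 50% or more of the UMIs, whereas for Il4ra 243 WT and 268 KO cells were needed.

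Among named classes with at least 30 cells in the library, the mannose receptor Mrc1 was highest in resident macrophage-like cells, where WT had 197.4 CPM (183.6 to 212.0) and KO 545.6 CPM (501.7 to 592.3), with 41.3% and 81.2% positive cells and a log2 ratio of 1.47 (1.31 to 1.63). The class was filled by different clusters: cluster 1 made up most of it in WT, and the C1q-led cluster 8 most of it in KO. Cluster 8 alone, with 126 WT and 107 KO cells, gave 432.9 and 624.0 CPM, a log2 ratio of 0.53 (0.34 to 0.71), and 78.6% and 91.6% positive cells. Cluster 1 went the other way, at 116.9 and 42.8 CPM (−1.45, −2.91 to −0.31), with 14 KO cells. After thinning the cluster 8 shares were 57.5% (48.1 to 66.5) and 65.3% (55.0 to 74.6), and the intervals overlapped. Within cluster 11 the level was 249.2 and 268.7 CPM (0.11), and within cluster 13 it was 296.1 and 157.1 CPM (−0.91), where 1 of the 7 WT cells held 17 of the 28 UMIs. Inflammatory monocyte-like cells went the other way, at 140.2 and 19.9 CPM (−2.82). Their clusters 5, 18 and 22 were at −2.51, −1.39 and −1.87, each smaller in size than the class value. T cell-like cells had an Mrc1 UMI in 0.840% of WT and 2.80% of KO cells (3 of 107). B cell-like cells were positive in 5% of WT and 0% of KO.

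Mgl2, a galactose-binding lectin, was spread over macrophage and dendritic cell clusters and was higher in KO in several of them. The cDC2-like cells of WT had 192.9 CPM (177.2 to 209.7) and those of KO 347.1 CPM (332.2 to 362.5), with a log2 ratio of 0.85 (0.71 to 0.99), with 34.6% and 48.4% positive cells. Both cDC2-like clusters shared the direction, cluster 2 at 267.0 and 439.8 CPM (0.72) and cluster 3 at 127.1 and 285.8 CPM (1.17). In cluster 8 Mgl2 was at 68.3 and 264.7 CPM (1.95, 1.55 to 2.37), and in cluster 11 at 126.8 and 340.7 CPM (1.43). In cluster 1 the interval included no difference, at 36.5 and 42.8 CPM (0.23, −1.25 to 1.40). Inflammatory monocyte-like cells went the other way, with 18 and 10 UMIs, or 31.5 and 3.32 CPM (−3.25, −4.53 to −2.06). Cluster 13 had the highest level, 972.9 CPM in its 7 WT cells and 1247 CPM in its 159 KO cells, of which 94.3% were positive. This cluster alone held 3000 of the 6635 KO UMIs of Mgl2, or 45.2%, against 9.23% of those in WT. Its own ratio was only 0.36 (0.06 to 0.67). Without cluster 13 the pooled log2 ratio of Mgl2 was 1.93 in place of 2.50. An Mgl2 UMI was found in 0% of WT and 2.80% of KO T cell-like cells (3 of 107), where 1 cell held 8 of the 14 UMIs. The shares were 0.5% and 3.53% in B cell-like cells, and 4.91% in WT plasma cell-like cells, at a median depth of 17940 UMIs.

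Cd209a, a DC-SIGN family lectin, followed dendritic cells. In cDC2-like cells 71.1% of WT and 80.4% of KO cells were positive, with 488.0 CPM (462.8 to 514.3) and 566.5 CPM (547.4 to 586.1) and a log2 ratio of 0.22 (0.12 to 0.31). The class held 78.2% of the WT but 51.3% of the KO Cd209a UMIs. The remainder in KO lay largely in cluster 13, with 2142 UMIs (33.0%) against 64 in WT, at 890.1 and 676.8 CPM (0.40). In cluster 3 the libraries were close, at 403.8 and 418.8 CPM (0.05), and in cluster 2 they were at 582.8 and 789.7 CPM (0.44). Resident macrophage-like cells had 76 and 36 UMIs (0.80), but 23 of the 36 lay in 1 KO cell and without the richest cell of each library the ratio was −0.24 (−1.24 to 0.64). T cell-like cells were positive in 0% of WT and 2.80% of KO (3 of 107), where 1 cell held 7 of the 9 UMIs. The shares were 2% and 0% in B cell-like cells, and 5.80% in WT plasma cell-like cells, which were deeper. That WT plasma cell-like share was above the 3.84% of WT resident macrophage-like cells.

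Conventional dendritic cells type 1 (cDC1)-like cells also carried both lectins, with 44 WT and 552 KO UMIs of Mgl2 and 83 and 677 of Cd209a, but nearly all came from cluster 16, which held cycling cells. Cluster 16 held 20 of the 68 WT and 98 of the 202 KO cells of the class. Inside it the log2 ratios were 1.04 (0.59 to 1.53) for Mgl2 and 0.38 (0.05 to 0.74) for Cd209a, against 1.59 and 0.97 for the class. This cluster gave 500 of the KO Mgl2 and 596 of the KO Cd209a UMIs. Its 58 Cd209a-positive KO cells had a Clec10a UMI, a cDC2 gene, in 37, and the cDC1 genes Xcr1 and Clec9a in 10 and 4. Its 40 Cd209a-negative KO cells had Clec10a in 1, Xcr1 in 24 and Clec9a in 28. Within this cluster, detection of Cd209a thus went with that of Clec10a and not with that of Xcr1 or Clec9a, although 6 of 7 cDC1 markers were raised in the cluster as a whole. The median depth was 22935 UMIs in the positive and 28021.5 in the negative cells.

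**Figure D3:**
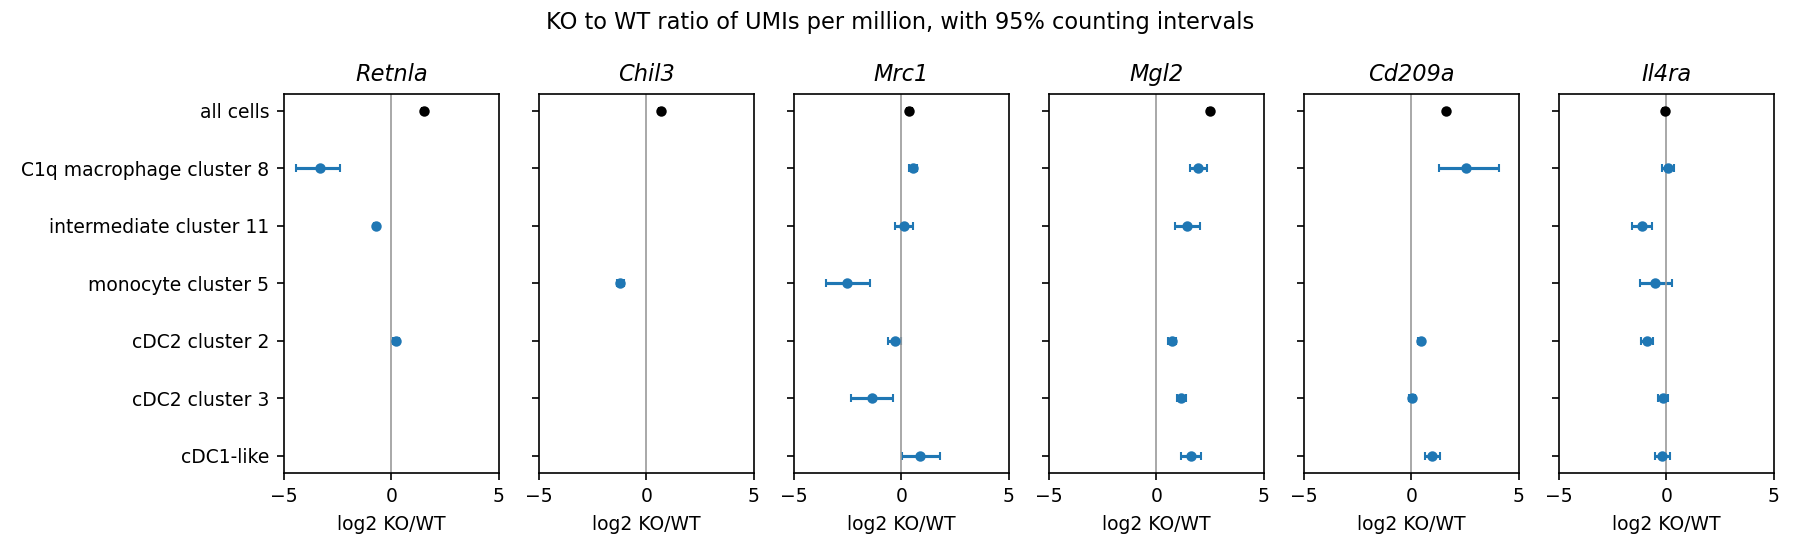
Log2 ratio of KO to WT for each gene over all cells (black) and within single clusters and cDC1-like cells (blue), with 95% counting intervals, leaving out ratios where either library had 3 UMIs or fewer. Mgl2 lay above 0 in the groups drawn for it, but clusters 18 (14 and 3 UMIs, −2.55) and 22 (4 and 1 UMIs, −2.87, with an interval that included 0) are not drawn, nor is cluster 1, while Il4ra was at −0.06 over all cells and −1.13 in cluster 11.

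Within classes, the share of the genes that were at least 2-fold apart was set against that of all genes with at least 20 UMIs. In resident macrophage-like cells 4 of 6 were, against 17% of 9023 genes, with Mrc1 and Mgl2 higher in KO and Retnla and Chil3 lower. Different clusters filled the class in the libraries. Inside clusters 8 and 1 Mrc1 was at 0.53 and −1.45 and Mgl2 at 1.95 and 0.23. Chil3, with 388 of its 400 WT UMIs in cluster 1, was at 0.27 there (−0.41 to 0.88). The class value of Mrc1 fell short of 2-fold at Leiden resolution 0.5 (0.94) and 2 (0.96). Retnla took the opposite direction in 4 alternatives (0.084 to 5.84). In the clustering used here Retnla had 144 WT and 12 KO UMIs (−1.71), where a single WT cell of cluster 8 held 87, without which, and without the richest KO cell, the ratio was −0.79 (−1.99 to 0.24). In inflammatory monocyte-like cells 4 of 6 were, against 17.3% of 7807 genes, with Retnla, Mrc1, Mgl2 and Il4ra lower in KO. Here too different clusters filled the class. For Il4ra the intervals of clusters 5 and 18 included no difference, and cluster 22 was at −1.36. Mgl2 had 0 WT and 6 KO UMIs in cluster 5, and was at −2.55 and −2.87 in clusters 18 and 22, from few UMIs. Mrc1 was lower in KO in each of these clusters. For Retnla all 29 WT UMIs lay in 1 cell of cluster 22, whereas 12 KO cells were positive and cluster 5 held 0 WT and 27 KO UMIs. In cluster 11 there were 4 of 6 against 19.2% of 6807 genes, with Chil3 (0 and 107 UMIs, at least 4.22-fold), Mgl2 and Cd209a higher and Il4ra lower (214.3 and 97.9 CPM, −1.13). In cDC2-like cells 0 of the 5 genes with enough UMIs reached 2-fold, against 9.65% of 9740 genes. That count was 1 at Leiden resolution 0.5 or 2, with 4000 variable genes or with the 6 genes among them. KO cDC2-like cells numbered 434 here, and 600, 328, 588 and 600 in those settings in that order. They numbered 452 with the stricter filter, 423 without likely doublets and 0 with each library alone. Whether cells of the unnamed cluster 13 took the cDC2-like name was not tested. In cDC1-like cells 2 of 5 genes reached 2-fold, against 10.7% of 9080 genes, namely Mgl2 (1.59) and Chil3 (1 and 69 UMIs, 4.05). Of the 69 Chil3 UMIs, 67 lay in 1 KO cell.

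Whether the genes mark the same cells was examined by counting cells with a UMI of each pair after thinning to 2000 UMIs, in 1966 WT and 1947 KO cells. Thinning left out 188 of the 192 WT and 383 of the 407 KO eosinophil-like cells, so the pairs with Retnla hardly cover that class. Of 15 pairs, 3 in WT and 5 in KO were found together more often than independence over all cells would give, and 0 and 4 less often, judged by counting intervals. The WT count of 3 depends on the setting, and was 10 without thinning and 8 when 2 or more UMIs were required. Most of this followed the clusters: against the number expected inside clusters, 1 pair in WT and 2 in KO were above and 0 and 1 below. At this depth no cell had more than 5 of the 6 genes. In WT 1176 cells had none, 557 had 1, 189 had 2, 39 had 3 and 5 had 4. In KO 903 had none, 648 had 1, 278 had 2, 104 had 3, 13 had 4 and 1 had 5. In the cells kept at this depth most of those with any of the genes thus had 1 only, although the unthinned KO cell with the third most Retnla UMIs had a UMI of all 6.

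Mgl2 and Cd209a were found together above expectation in both libraries. There were 47 WT cells with both against 9.59 expected (ratio 4.90, 3.60 to 6.52), and 201 KO cells against 76.8 (2.62, 2.27 to 3.0). Against the number expected inside clusters the ratios were 1.43 (1.05 to 1.90) and 1.20 (1.04 to 1.38). Retnla and Mrc1 were both found in 5 WT cells against 3.34 expected and in 30 KO cells against 6.88 (4.36, 2.94 to 6.23), and inside clusters the KO ratio was 1.76 (1.18 to 2.51), against 0.70 for WT with an interval of 0.23 to 1.64. The 7 richest Retnla cells of KO all had Mrc1, 6 had Mgl2 and 1 had Cd209a. Mrc1 and Mgl2 were both found in 31 WT cells against 12.8 (2.42, 1.64 to 3.43) and in 95 KO cells against 41.5 (2.29). Inside clusters the interval of this pair included 1 in both libraries, at 1.31 (0.89 to 1.86) and 1.16 (0.94 to 1.42).

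Chil3, by contrast, was rarely found with the lectins in KO. No KO cell had Chil3 and Cd209a where 28.4 were expected over all cells and 5.54 inside clusters, while WT had 4 against 9.09. Chil3 and Mgl2 were both found in 3 KO cells against 26.5 (0.11), and Chil3 and Mrc1 in 5 against 15.3 (0.33). Inside clusters the intervals of both pairs included 1, at 0.53 (0.11 to 1.54) and 0.57 (0.18 to 1.32). In WT Chil3 and Mrc1 were both found in 16 cells against 12.1 (1.32).

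**Figure D4:**
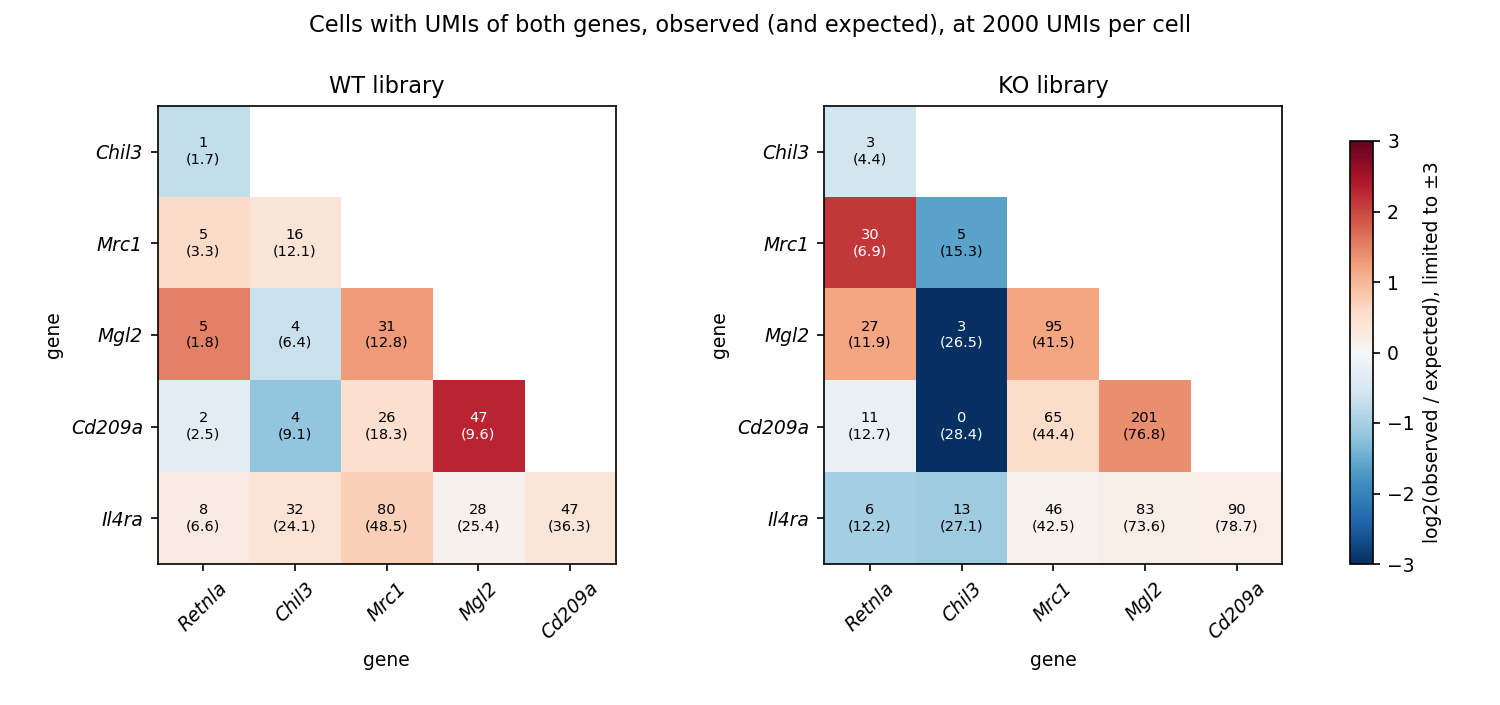
Number of cells with UMIs of both genes of each pair after thinning to 2000 UMIs, with the number expected over all cells in brackets, for WT and KO. The colour is log2 of observed over expected, limited to 3 either way. Mgl2 with Cd209a was red in both libraries (47 and 201 cells), and Chil3 with Cd209a had 0 cells in KO.

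Profiles were compared across 22 sums of a named or intermediate class in a library, each with at least 30 cells. Unnamed clusters were left out, among them cluster 13, which held 45.2% of the KO Mgl2 and 33.0% of the KO Cd209a UMIs. The 26 WT cells of the intermediate cluster, where WT Retnla was highest, were left out too. The closest profiles among the genes were Mgl2 with Cd209a (Pearson's r = 0.75), Mrc1 with Mgl2 (0.64) and Retnla with Mrc1 (0.46). All other pairs lay between −0.11 and 0.39. The 22 sums share libraries and depth, so r is a description. Among 9484 candidate genes, those most like Retnla were Ccl9 (0.73), Ticam2 (0.71) and Tspan17 (0.69), and for Chil3 F10 (0.87), C3 (0.86) and Plod3 (0.85). For Mrc1 they were Rab3il1 (0.91), Dab2 (0.89) and Slc11a2 (0.87). The lectins of dendritic cells shared a neighbour, Clec10a, with Mgl2 lying nearest to Rtn1 (0.88), Clec10a (0.87) and Slamf9 (0.86) and Cd209a to Fcor (0.86), Ctnnd2 (0.86) and Clec10a (0.85). Il4ra lay nearest to Brd2 (0.85), Nfkb1 (0.81) and Senp2 (0.80).

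The other genes of the pathway were counted over all cells, where all genes had a median of −0.27 on the log2 scale. Of 3 receptor subunits, Il4ra among them, and 10 kinases and transcription factors with enough UMIs none was 2-fold apart, and their medians were −0.06 and 0.09. Within classes some receptor subunits were at least 2-fold lower in KO. In inflammatory monocyte-like cells 2 of 3 were, against 17.3% of all genes in either direction. The median there was −1.24, which is the value of Il4ra, against −0.18 for all genes. The count was 1 of 3 in each of resident macrophage-like cells (17% of all genes), cluster 11 (19.2%) and cDC2-like cells (9.65%). Stat6 itself had a ratio of 0.60 (0.47 to 0.74) over all cells. Of 12 other genes known to be induced by interleukin-4, 7 were at least 2-fold higher in KO and 0 lower, with a median of 1.10, against 24.3% of all genes past 2-fold in either direction. The chemokine Ccl17 stood out with 235 WT and 7639 KO UMIs (4.79, 4.60 to 4.98), followed by the chemokine Ccl22 (2.56), the scavenger receptor Cd36 (1.44), Fn1 (1.35), Alox15 (1.19), the lectin Clec10a (1.18) and the chemokine Ccl24 (1.03). Ccl17 was among the leading genes of cluster 13. Ccl22, Fn1, Alox15 and Clec10a were also markers used to name mature dendritic cell, monocyte, eosinophil and cDC2 clusters, and these classes had more cells in KO (19 and 43 mature dendritic cell-like and 192 and 407 eosinophil-like cells, with the other two given above). Of 7 genes of classical activation, the state linked to interferon-γ and bacterial products, 3 were at least 2-fold higher in KO (Il12b 2.84, Il6 1.47 and Tnf 1.11) and 1 lower (Cxcl9 −1.17), with a median of 0.88. In resident macrophage-like cells 2 of 10 interleukin-4 induced genes were higher and 3 lower, against 17% of all genes, with a median of −0.43 against −0.21 for all genes there. In inflammatory monocyte-like cells 0 of 7 were higher and 2 lower, against 17.3% of all genes, with a median of −0.35 against −0.18. In cDC2-like cells 1 of 10 was higher and 0 lower, near the 9.65% of all genes. In cDC1-like cells 4 of 10 were higher and 1 lower, against 10.7% of all genes, with a median of 0.50 against −0.12. Cluster 11 had 2 of 10 higher and 1 lower, against 19.2% of all genes, with a median of 0.16 against −0.06. The counts thus differed between classes, and those differences were not tested.

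The genes lie on different chromosomes of GRCm38: Retnla at chr16:48842551-48844461 (plus strand), Chil3 at chr3:106147554-106167564 (minus), Mrc1 at chr2:14229392-14332057 (plus), Mgl2 at chr11:70130329-70137550 (plus), Cd209a at chr8:3743397-3748984 (minus) and Il4ra at chr7:125552120-125579474 (plus). Besides Chil3, only Mgl2 shared 50-base stretches near its 3′ end with other genes (2.69%).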

How the data were processed

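Colon lamina propria cells of 1 WT and 1 KO library were profiled with 10x Genomics 3′ chemistry. The authors deposited raw UMI counts per gene and barcode, made with Cell Ranger 3.0.2 per the file headers, and the submitters' processing notes also list Seurat 4. Counts were filtered as in the study (200 to 6000 detected genes, at most 15% mitochondrial UMIs), which removed 18.5% of WT and 16.8% of KO barcodes. The study clustered with DESC. Here both libraries were clustered together with Python 3.11.15, scanpy 1.11.5, scikit-learn 1.9.0 and leidenalg 0.10.2 (2000 variable genes without the members, 30 principal components, 15 neighbours, Leiden resolution 1), so cell classes may differ from the study's. A marker was raised at 2-fold (prior 10 CPM) and 10% detection, a name needed 3 raised markers, and a cluster with equal numbers of raised macrophage and monocyte markers was called intermediate. No doublets were removed, except in an alternative. Thinning to 2000 UMIs left out 631 WT and 567 KO cells.

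UMIs were summed per class and library, with exact Poisson, Clopper-Pearson and conditional binomial 95% intervals (numpy 2.4.6, scipy 1.17.1). Ratios counted as 2-fold needed at least 20 UMIs over both libraries. With a library at 0, the fold was set against 3 UMIs. The statistics were tested on simulated data. Named besides the members were the 3 genes closest to each in log2(CPM + 10) among genes with at least 200 UMIs, and genes of the listed groups. A further gene of the list is not reported here. The members and lists were chosen with earlier results of these data known. Coordinates come from GENCODE M21 and promoter sequences from RefSeq. The authors' build is not given in the sources used here. Clec7a, on the list of interleukin-4 induced genes, was not matched.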

Additional observations from a re-analysis of the deposited data

Results flagged for a closer look

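Some classes moved in opposite directions between the libraries, with counting intervals on opposite sides of 0. None of these differences between classes was tested. The differences are in log2 ratio of KO to WT. Retnla was at 0.40 in eosinophil-like and −4.21 in B cell-like cells, a difference of 4.61, and 26 of the 39 WT UMIs in B cell-like cells lay in 1 cell. Chil3 was at 4.05 in cDC1-like and −5.0 in neutrophil-like cells, a difference of 9.05, with 1 WT and 69 KO UMIs in the former and 41 and 5 in the latter, but 67 of the 69 lay in 1 cell, so the former value rests on that cell. Mrc1 was at 1.47 in resident macrophage-like cells but at −2.82 in inflammatory monocyte-like cells, a difference of 4.28. Mgl2 was at 2.39 and −3.25 in the same classes, a difference of 5.64. Different clusters filled both classes in the libraries. Inside the resident macrophage-like clusters 8 and 1 Mrc1 was at 0.53 and −1.45 and Mgl2 at 1.95 and 0.23. For each of these genes the class value thus lay above those of both clusters. The class value of Mrc1 was 0.94 and 0.96 at Leiden resolution 0.5 and 2. Inside the monocyte-like clusters 5, 18 and 22 Mrc1 was at −2.51, −1.39 and −1.87. In cluster 5, which held most of the KO monocyte-like cells, Mgl2 had 0 WT and 6 KO UMIs. Il4ra was at 0.88 in T cell-like and −1.26 in neutrophil-like cells, a difference of 2.13.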

How the results depend on the processing

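No paired analysis was possible because each genotype has 1 library. Over all cells, 16 of 36 values moved by less than the counting interval and no ratio of at least 2-fold changed sign. Without any cell filter the log2 ratios were 1.68 for Retnla, 0.85 for Chil3, 0.60 for Mrc1, 2.68 for Mgl2, 1.78 for Cd209a and 0.094 for Il4ra, whose small ratio thereby changed sign. With mitochondrial, ribosomal protein and immunoglobulin UMIs out of the total they were 1.40, 0.56, 0.25, 2.38, 1.50 and −0.18. The stricter filter (500 genes, 10% mitochondrial) gave 1.63 for Retnla and 1.55 for Cd209a. Without cluster 13, an alternative chosen after seeing the data, Retnla was at 1.66, Chil3 at 0.84, Mrc1 at 0.25, Mgl2 at 1.93 and Cd209a at 1.26, and without its richest cell in each library, chosen likewise, Retnla was at 1.77.

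Within classes 138 of 215 values stayed within the interval, 73 moved, and 4, counted only among ratios of at least 2-fold, changed sign. These 4 were all Retnla in resident macrophage-like cells (0.084 with the members among the variable genes, 5.84 with each library clustered alone, 0.56 with the stricter filter, 2.65 without likely doublets), and the cause was not tested. Among smaller ratios, signs also changed for Chil3 in inflammatory monocyte-like cells (−0.49), which lay between 0.80 and 1.34 under both Leiden resolutions, with the members among the variable genes, with each library alone, with the stricter filter and without likely doublets, and at −1.25 with 4000 variable genes. Smaller ratios of Mrc1 (cluster 11 or its counterpart, cDC2-like and cDC1-like cells), Il4ra (resident macrophage-like and cDC1-like), Cd209a (inflammatory monocyte-like and resident macrophage-like) and Retnla (cDC2-like cells and cluster 11) also changed sign under at least 1 alternative. Of genes with UMIs in both libraries, cDC2-like cells had 0 at least 2-fold apart, and 1 at Leiden resolution 0.5 or 2, with 4000 variable genes or with the members among them. cDC1-like cells had 2, and 4 with each library alone. The pairs found together above expectation in WT, 3 in the report, were 10 without thinning, 5 without likely doublets, 5 with the stricter filter and 8 at 2 or more UMIs. Those below, 0 in the report, were 1 with thinning to 1000 UMIs, without thinning, without likely doublets, with the stricter filter and at 2 or more UMIs. In KO the 5 pairs above were 8 without thinning and 8 at 2 or more UMIs, and the other KO counts changed by less than 1.5 times. Depth limits values in eosinophil-like cells most.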
